A study of Homo sapiens with 15 samples.

Results

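Transcripts of 10 transcription factors that direct the myeloid lineage were followed in 3 human AML lines after knockdown of RNF5 (RNF5-KD), a membrane-anchored ubiquitin ligase of the endoplasmic reticulum. The members are the C/EBP family genes CEBPA, CEBPB, CEBPD and CEBPE, and SPI1, GFI1, RUNX1, IRF8, MYB and SOX4. They were chosen by gene symbol, 1 row per gene, which gave 10 of the 57820 gene identifiers in the files. Each line had been transduced with a lentiviral vector, either the empty pLKO vector or the same vector carrying an shRNA against RNF5 (shRNF5). MOLM-13, a monocytic leukaemia line, had 3 pLKO and 2 shRNF5 libraries. U937, a monocyte-like line, had 2 of each, and HL-60, a promyelocytic line, had 3 of each. Each line is 1 established culture, no drug was given to any group, and which of the RNF5 hairpins was sequenced is not stated in the sources used here. The sample labels place the RNA harvest 7 days after knockdown and the series design places it 5 days after. The library kit given in the labels starts from transcript 3′ ends, and the one in the study's methods is a directional poly(A) kit. Nothing says that the libraries of a group came from separate cultures, so p-values measure only the spread between these libraries, which may be technical.

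Myeloid cells arise from stem and progenitor cells through a succession of such factors. RUNX1, a DNA-binding partner of CBFB, and MYB, which sustains proliferating progenitors, act early. SPI1 (PU.1) and CEBPA commit progenitors to the myeloid fate, after which IRF8 favours monocytes and dendritic cells and GFI1, a repressor, favours granulocytes. CEBPE drives the late granulocyte programme, CEBPB and CEBPD act in mature, cytokine-stimulated and emergency settings, and SOX4 is a progenitor factor known to promote leukaemia when its level is high. Several of these genes, among them CEBPA, RUNX1 and SPI1, are mutated or repressed in AML.

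Promoter sequence is shown for the 3 members on which most of the results turn and which hold a searched motif, so that the matches can be seen beside the values. The sequences come from RefSeq on GRCh38.p14 and cover the 250 bases before the transcription start, 5′ to 3′. Of the 10 members, 8 were in the RefSeq promoter table, and CEBPD and SPI1 were not. Capitals mark a match on either strand to GAGGAA, a core of SPI1 sites, in SOX4 and RUNX1, and to AACAAAG, a core of SOX sites, in MYB.
SOX4 (chr6:21593501-21593750, forward strand): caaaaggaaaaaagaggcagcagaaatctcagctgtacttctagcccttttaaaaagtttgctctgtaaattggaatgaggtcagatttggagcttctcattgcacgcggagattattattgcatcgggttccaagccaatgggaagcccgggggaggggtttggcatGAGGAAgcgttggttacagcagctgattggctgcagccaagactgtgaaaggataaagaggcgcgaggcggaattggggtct
RUNX1 (chr21:34888700-34888949, reverse strand): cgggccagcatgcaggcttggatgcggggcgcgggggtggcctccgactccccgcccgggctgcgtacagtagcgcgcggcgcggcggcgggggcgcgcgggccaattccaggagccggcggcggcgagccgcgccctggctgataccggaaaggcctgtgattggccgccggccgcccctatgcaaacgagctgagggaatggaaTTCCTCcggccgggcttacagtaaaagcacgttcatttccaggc
MYB (chr6:135181058-135181307, forward strand): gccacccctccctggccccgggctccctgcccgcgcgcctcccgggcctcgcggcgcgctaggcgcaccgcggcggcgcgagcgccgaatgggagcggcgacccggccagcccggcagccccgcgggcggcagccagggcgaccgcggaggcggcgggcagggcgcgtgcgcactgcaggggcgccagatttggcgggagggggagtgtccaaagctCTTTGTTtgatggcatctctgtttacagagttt
GAGGAA lies 82 bases before the start of SOX4 and 44 bases before that of RUNX1, and AACAAAG lies 33 bases before that of MYB. GAGGAA was also found in CEBPE, so 3 of 8 members held it, and 23.6% of all 35116 promoters did. AACAAAG was in 1 of 8 members and in 4.5% of all promoters. TGTGGT, a core of RUNX sites, was in IRF8 and in 11% of all promoters. No member held TTNCNNAA (C/EBP), TAACNG (MYB) or AAATCA (GFI1), which 33.2%, 17.6% and 11.6% of all promoters did. The searches covered both strands, and the motifs can overlap one another. The promoter table holds 1 start for each of the 3 genes shown, and any other start, such as another RUNX1 promoter, was not searched. A match describes letters in this window and is not a measured binding site.

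The values are read counts per gene that the authors normalized within each line and rounded to whole numbers, so a level can be set beside that of another line but was not tested across lines. A gene at 0 in every library of a line had been removed there by the authors' filter on low counts. RNF5 itself, on chromosome 6 of GRCh37 (32146182 to 32148570), was lower in every shRNF5 library than in every pLKO library of its line, with log2 fold changes of -3.77, -3.64 and -3.25 in MOLM-13, U937 and HL-60. Estimated depth ranged from 9720000 to 63800000 reads per library. In MOLM-13 the pLKO libraries (9720000 to 15300000) were shallower than both shRNF5 libraries (24400000 and 63800000), and the part of depth in the MOLM-13 results was not tested. All 7 leukocyte and myeloid markers were above 0 in each line, and their summed value in HL-60 was 126055 to 150713 with pLKO and 167337 to 238316 with shRNF5, while the ranges overlapped in MOLM-13 and U937. Most of the HL-60 sum was MPO, the myeloperoxidase gene, at 105563 to 130372 with pLKO and 141317 to 207430 with shRNF5. In HL-60, 5 of the 7 markers were called as higher and 1 as lower, beside 13.6% and 12.3% of all genes. ITGB2, an integrin gene, rose there by 0.83 on the log2 scale (limma adjusted p = 0.00760) and MPO by 0.60 (0.0780). The MPO call was lost in 5 of 6 fits with a library left out. CD33 of the same list was called as lower there (log2 fold change -0.45, limma adjusted p = 0.0241), but not without pLKO replicate 1 (-0.40, 0.105) or shRNF5 replicate 2 (-0.40, just inside the fold limit of 0.4 used for calls). T cell, erythroid and epithelial markers (13 genes) were at 0 in all libraries. Of 5 B cell markers, MOLM-13 had PAX5 alone (925 to 1275), U937 had 3 (summed 277 to 342) and HL-60 had CD79A alone (22 to 44). Of 4 stromal markers, COL1A1 was above 0, in U937 only (39 to 234 with pLKO and 15 to 29 with shRNF5). Their part in the results was not tested.

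Each line was tested with limma on log2(value + 1), and a gene was called at a Benjamini-Hochberg adjusted p under 0.1 over all genes of the line together with an absolute log2 fold change over 0.4. On this scale the change of a gene with low values is understated. Of the 10 members, 9 passed the authors' filter in each line: CEBPE was at 0 in all MOLM-13 libraries, CEBPD in all U937 libraries and IRF8 in all HL-60 libraries. In MOLM-13, 1 of 9 members was called (SOX4, lower), against 2.04% of all 13026 genes tested, 1.03% higher and 1.01% lower. In U937, 2 of 9 were called (RUNX1 higher, SOX4 lower), against 15.7% of 13165 genes, 6.92% higher and 8.74% lower. In HL-60, 2 of 9 were called (CEBPB higher, SOX4 lower), against 25.9% of 12570 genes, 13.6% higher and 12.3% lower. The U937 and HL-60 shares are near those of all genes. The pLKO and shRNF5 libraries did not overlap for 3 of 9 members in MOLM-13, 8 of 9 in U937 and 3 of 9 in HL-60, beside 38.7%, 59.2% and 38.5% of all genes. The median log2 fold change of the members was -0.06, -0.51 and 0.08, and that of all genes 0.01, 0.00 and 0.00. SOX4 was the member called in every line, and 7 of the 10 members were called in none. The shares of all genes called in every line or in none are not given here.

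The number of calls over all genes depended on single libraries. In U937 it fell from 2062 to 0 without pLKO replicate 2 (limma, 2420 genes at an unadjusted p under 0.05), to 0 without shRNF5 replicate 1 (1084 genes) and to 6 without shRNF5 replicate 3, and it was 2369 without pLKO replicate 3. In MOLM-13 it fell from 266 to 1 without pLKO replicate 2, 41 without pLKO replicate 3, 6 without shRNF5 replicate 1 and 2 without shRNF5 replicate 2, and it rose to 872 without pLKO replicate 1. In HL-60 it went from 3251 to 1970 without pLKO replicate 3 and 1991 without shRNF5 replicate 3, and it was 2308 to 3413 in the other 4 fits.

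**Figure D1:**
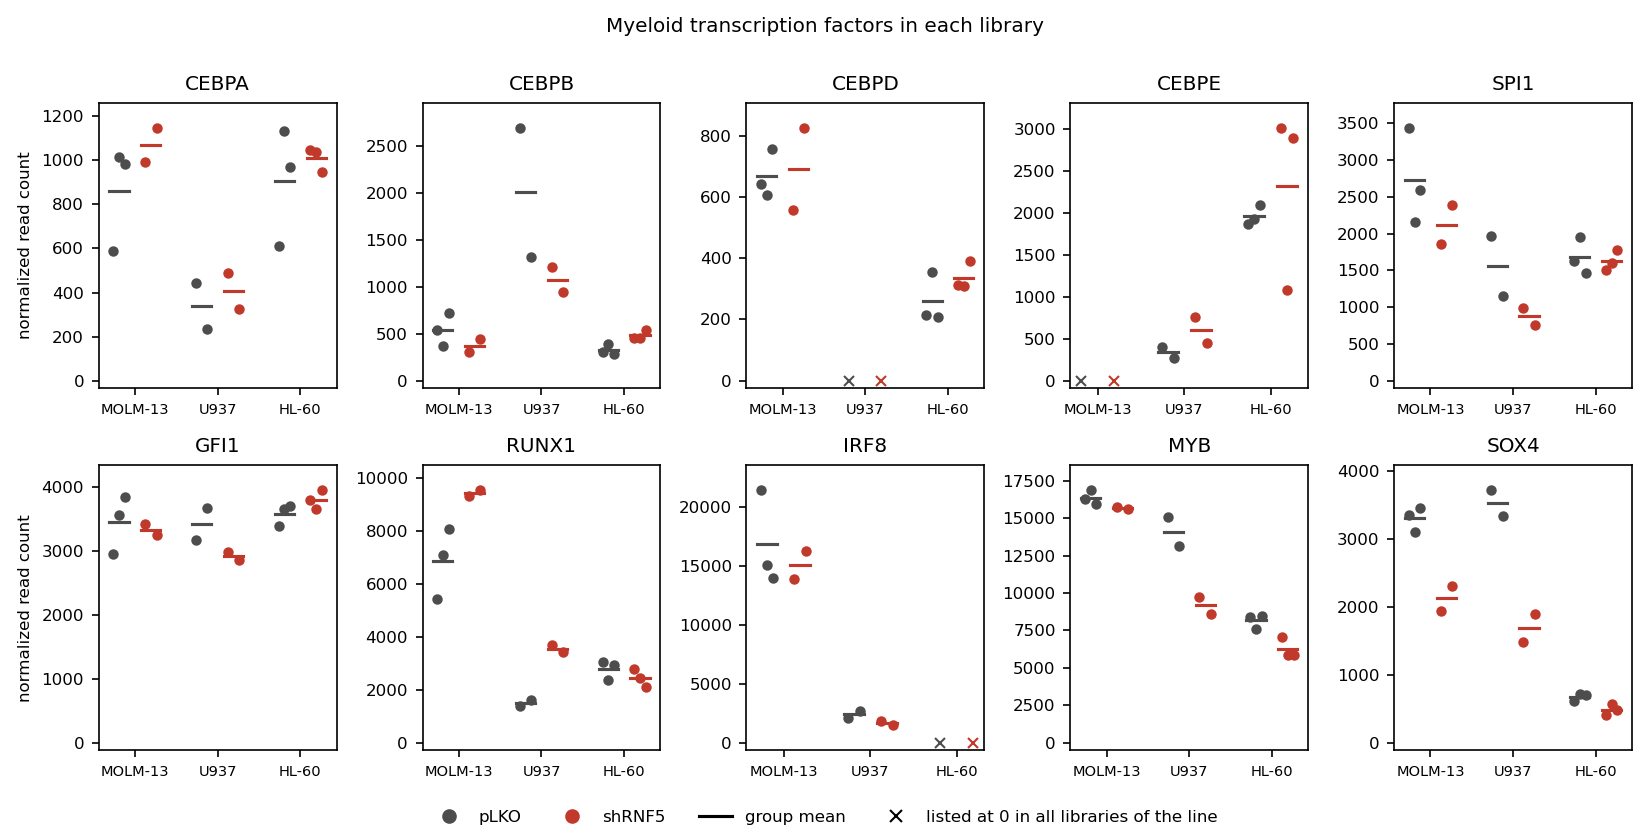
Normalized read count (y axis, linear, normalized within each line) of the 10 members in each of the 15 libraries, pLKO in grey and shRNF5 in red, with a bar at the group mean. SOX4 and MYB have all shRNF5 points below all pLKO points in every line, RUNX1 is higher with shRNF5 in U937, and a cross marks CEBPE, CEBPD and IRF8 in the line where they were listed at 0.

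SOX4, an HMG-box factor of lymphoid and myeloid progenitors, fell after RNF5-KD in all 3 lines. It is a single-exon gene on chromosome 6 of GRCh37 (21593982 to 21598850, forward strand). In MOLM-13 its normalized read count was 3355, 3100 and 3453 with pLKO and 1937 and 2308 with shRNF5. In U937 it was 3715 and 3342 with pLKO and 1479 and 1898 with shRNF5. In HL-60, where its level was lowest, it was 619, 715 and 698 with pLKO and 404, 575 and 490 with shRNF5. Every shRNF5 library lay below every pLKO library of its line. The MOLM-13 log2 fold change was -0.64 (SE 0.14, limma adjusted p = 0.0981), that of U937 was -1.07 (SE 0.24, limma adjusted p = 0.0339) and that of HL-60 was -0.48 (SE 0.15, limma adjusted p = 0.0515). These correspond to levels 1.56-fold, 2.1-fold and 1.39-fold lower. The direction was kept in every alternative and in every fit with a library left out, with log2 fold changes from -0.77 to -0.52 in MOLM-13, -1.25 to -0.89 in U937 and -0.60 to -0.35 in HL-60. The calls were less stable. Without the mean-variance trend they were lost in MOLM-13 (limma adjusted p = 0.196) and U937 (0.130). Blocking by the replicate numbers of the labels also ended the MOLM-13 call (limma adjusted p = 0.149). In MOLM-13 the call was lost without pLKO replicate 2 (limma adjusted p = 0.206), pLKO replicate 3 (0.129), shRNF5 replicate 1 (0.731) or shRNF5 replicate 2 (0.510). In U937 it was lost without pLKO replicate 2 (limma adjusted p = 0.256), shRNF5 replicate 1 (0.600) or shRNF5 replicate 3 (0.171). In HL-60 it was lost without pLKO replicate 2 (limma adjusted p = 0.108), pLKO replicate 3 (0.159), shRNF5 replicate 3 (0.113) or shRNF5 replicate 1 (0.150, log2 fold change -0.35, under the fold threshold). Fits that leave 1 library in a group assume that it varies like the others.

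MYB, the proto-oncogene that keeps haematopoietic progenitors cycling, lay lower with shRNF5 in each line without a call in any. Its gene is on chromosome 6 (135502446 to 135540311, forward strand). The MOLM-13 libraries gave 16248, 16863 and 15924 with pLKO and 15707 and 15610 with shRNF5. Those of U937 gave 15054 and 13145 with pLKO and 9749 and 8626 with shRNF5, and those of HL-60 gave 8408, 7606 and 8487 with pLKO and 7032, 5854 and 5836 with shRNF5. The groups did not overlap in any line, although in MOLM-13 the lowest pLKO and the highest shRNF5 library were close. SOX4 and MYB were the 2 members with all shRNF5 libraries below all pLKO libraries in all 3 lines. The share of all genes that lay lower in this way in all 3 lines is not given here, so the count has no background. The log2 fold change of MYB was -0.06 in MOLM-13 (SE 0.12, limma adjusted p = 0.830), -0.62 in U937 (SE 0.25, limma adjusted p = 0.145) and -0.39 in HL-60 (SE 0.13, limma adjusted p = 0.0510). In HL-60 the adjusted p passed and the fold missed the threshold of 0.4. MYB was called there after median-of-ratios rescaling (log2 fold change -0.40, limma adjusted p = 0.0468), without pLKO replicate 2 (-0.44, 0.0545) and without shRNF5 replicate 1 (-0.48, 0.0377). Its limma adjusted p rose to 0.152 and 0.173 without pLKO replicate 1 or 3. It was 0.112 and 0.138 without shRNF5 replicate 2 or 3. In one fit over all 15 libraries MYB was called in U937 too (limma adjusted p = 0.00873). No other alternative called it in U937, where its log2 fold change ran from -0.72 to -0.52 with a library left out.

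RUNX1, a core-binding factor needed for definitive haematopoiesis, rose in U937. In the annotation used here it spans 36160098 to 37376965 on the reverse strand of chromosome 21. The U937 values were 1395 and 1622 with pLKO and 3671 and 3428 with shRNF5, a 2.36-fold higher level (log2 fold change 1.24, SE 0.24, limma adjusted p = 0.0213). Both shRNF5 libraries lay well above both pLKO libraries. In MOLM-13 the values were 5435, 7096 and 8054 with pLKO and 9302 and 9523 with shRNF5 (log2 fold change 0.47, SE 0.18, limma adjusted p = 0.244). The MOLM-13 groups did not overlap, with the pLKO libraries spread over a wide range, and no call was made. In HL-60 the values were 3057, 2366 and 2947 with pLKO and 2774, 2448 and 2119 with shRNF5, and the groups overlapped (log2 fold change -0.19, SE 0.14, limma adjusted p = 0.375). The U937 call was lost without the mean-variance trend (limma adjusted p = 0.104), without pLKO replicate 2 (0.256), shRNF5 replicate 1 (0.538) or shRNF5 replicate 3 (0.169), while the log2 fold change stayed between 1.13 and 1.35.

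**Figure D2:**
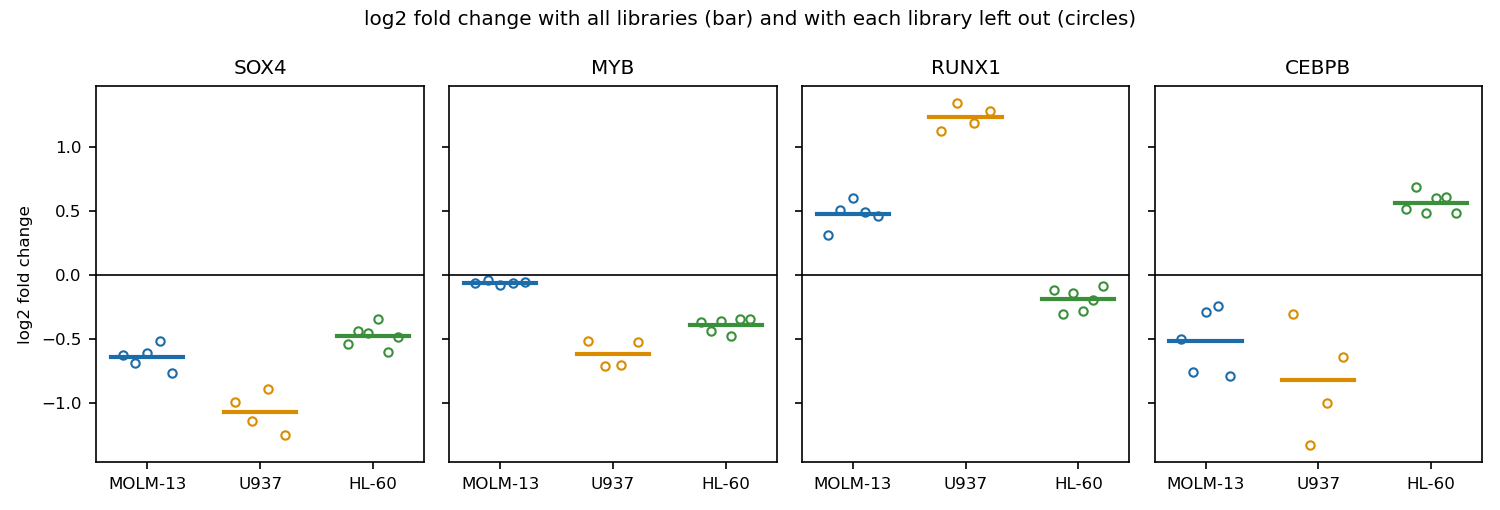
log2 fold change of shRNF5 against pLKO (y axis) for SOX4, MYB, RUNX1 and CEBPB in each line, with all libraries (bar) and with each library left out in turn (open circles). SOX4 stays below 0 in every fit, RUNX1 stays between 1.13 and 1.35 in U937, and CEBPB lies below 0 in MOLM-13 and U937 and above 0 in HL-60.

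The C/EBP genes encode leucine zipper factors that share a binding motif and differ in when they act. CEBPB, a single-exon gene on chromosome 20 (48807367 to 48809205), rose in HL-60 from 305, 387 and 290 with pLKO to 458, 452 and 536 with shRNF5. The HL-60 groups did not overlap (log2 fold change 0.56, SE 0.16, limma adjusted p = 0.0314). In U937 the values were 2691 and 1320 with pLKO and 1209 and 940 with shRNF5 (log2 fold change -0.82, SE 0.33, limma adjusted p = 0.144). The 2 pLKO libraries of U937 differed more from each other than the lower of them did from the shRNF5 libraries. In MOLM-13 the values were 536, 374 and 717 with pLKO and 302 and 443 with shRNF5, and the groups overlapped (log2 fold change -0.52, SE 0.29, limma adjusted p = 0.399). CEBPB was called as lower in MOLM-13 when shRNF5 replicates 1 and 2 were blocked with pLKO replicates 2 and 3, as the deposited files number them (log2 fold change -0.50, SE 0.14, limma adjusted p = 0.0221), and not with the block of the label numbers (-0.29, limma adjusted p = 0.668). The HL-60 call was lost in one fit over all 15 libraries (limma adjusted p = 0.166) and without pLKO replicate 3 (0.128) or shRNF5 replicate 3 (0.108). In U937, CEBPB was called as lower in the fit over all 15 libraries (limma adjusted p = 0.0702) and without pLKO replicate 3 (log2 fold change -1.34, limma adjusted p = 0.0670). Without pLKO replicate 2 its value was -0.31 (limma adjusted p = 0.508).

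CEBPA, which licenses granulocyte and monocyte development, was not called in any line. It is a single-exon gene on the reverse strand of chromosome 19 (33790840 to 33793440). Its values were 587, 1015 and 984 with pLKO and 994 and 1146 with shRNF5 in MOLM-13, 444 and 236 with pLKO and 488 and 325 with shRNF5 in U937, and 609, 1131 and 971 with pLKO and 1046, 1037 and 947 with shRNF5 in HL-60. The groups overlapped in each line, and pLKO replicate 1 was the lowest library of both MOLM-13 and HL-60. The log2 fold changes were 0.35, 0.30 and 0.21 (SE 0.25, 0.37 and 0.20), with limma adjusted p of 0.503, 0.637 and 0.492. Without pLKO replicate 3 the U937 value was -0.16, and without pLKO replicate 1 the HL-60 value was -0.05.

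CEBPE, the factor of late granulocyte development, was measured in U937 and HL-60 and not in MOLM-13. It lies on the reverse strand of chromosome 14 (23586245 to 23589465). In U937 it gave 403 and 273 with pLKO and 756 and 446 with shRNF5, without overlap (log2 fold change 0.81, SE 0.34, limma adjusted p = 0.163). In HL-60 it gave 1862, 1921 and 2089 with pLKO and 3008, 1078 and 2884 with shRNF5. The second shRNF5 library lay below all pLKO libraries of HL-60 and the other 2 lay above them (log2 fold change 0.11, SE 0.31, limma adjusted p = 0.833). Without that library CEBPE was called (log2 fold change 0.59, limma adjusted p = 0.0141), and without shRNF5 replicate 1 or 3 the value was -0.15 or -0.12. The same library had the highest RNF5 value of the HL-60 shRNF5 libraries (133, against 37 and 43). A link between its CEBPE and RNF5 values was not tested.

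CEBPD, which responds to inflammatory cytokines, was measured in MOLM-13 and HL-60. It lies on chromosome 8 (48649475 to 48650726, reverse strand). The MOLM-13 values were 642, 606 and 758 with pLKO and 557 and 825 with shRNF5 (log2 fold change 0.03, SE 0.21, limma adjusted p = 0.958). The 2 shRNF5 libraries lay on either side of the pLKO range. The HL-60 values were 214, 355 and 209 with pLKO and 311, 310 and 390 with shRNF5 (log2 fold change 0.41, SE 0.22, limma adjusted p = 0.197). The overlap came from pLKO replicate 2, and without it CEBPD was called (log2 fold change 0.66, limma adjusted p = 0.0315), as it was with library weights (0.52, 0.0693). Without pLKO replicate 1 or 3 the HL-60 value was 0.30 or 0.28 (limma adjusted p of 0.442 and 0.491), and without shRNF5 replicate 3 it was 0.30 (0.459).

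**Figure D3:**
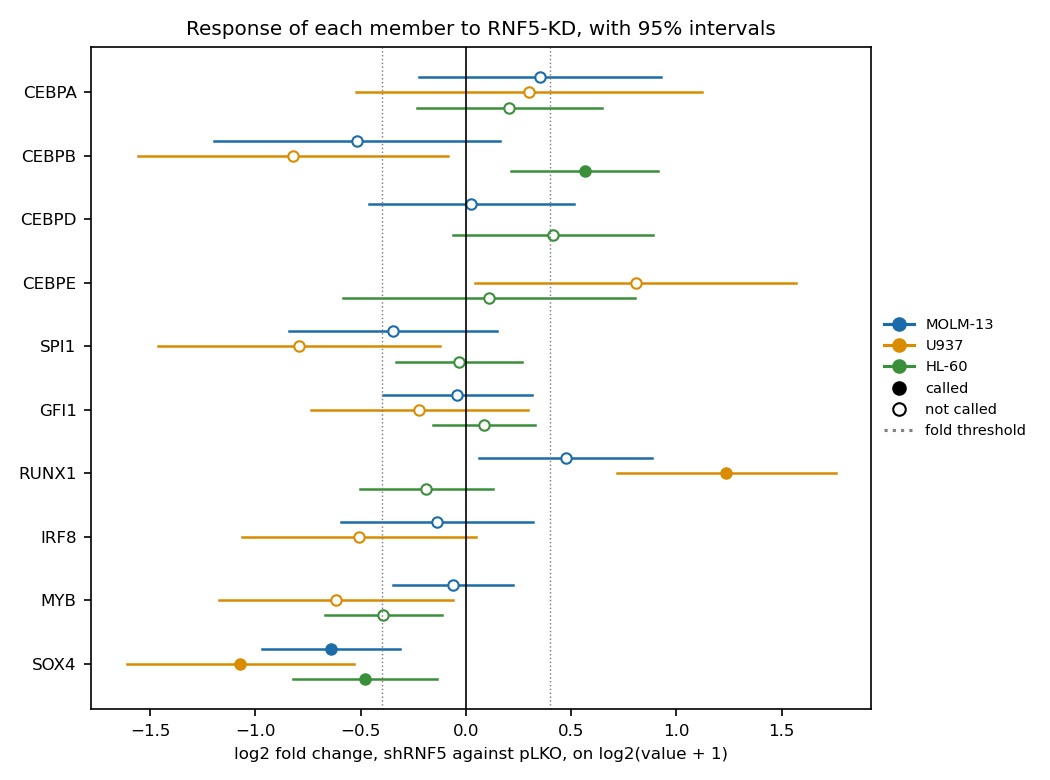
log2 fold change of shRNF5 against pLKO on the log2(value + 1) scale (x axis) with its 95% interval from limma, for each member (rows) in MOLM-13, U937 and HL-60. Filled points are called, and dotted lines mark the fold threshold of 0.4. SOX4 is filled in each line, RUNX1 in U937 at 1.24 and CEBPB in HL-60 at 0.56, and the U937 interval is the widest for each member measured in that line.

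The factors that set the choice between monocytes and granulocytes were not called in any line. SPI1 (PU.1), an ETS factor, lies on chromosome 11 (47376411 to 47400098, reverse strand). In U937 it gave 1962 and 1151 with pLKO and 991 and 759 with shRNF5, without overlap (log2 fold change -0.79, SE 0.30, limma adjusted p = 0.127). In MOLM-13 it gave 3433, 2156 and 2585 with pLKO and 1856 and 2382 with shRNF5 (log2 fold change -0.35, SE 0.22, limma adjusted p = 0.435). In HL-60 it gave 1621, 1947 and 1462 with pLKO and 1509, 1600 and 1776 with shRNF5 (log2 fold change -0.04, SE 0.14, limma adjusted p = 0.875). The HL-60 libraries of both constructs covered the same range. In U937, SPI1 was called as lower in one fit over all 15 libraries (limma adjusted p = 0.0313) and without pLKO replicate 3 (log2 fold change -1.18, limma adjusted p = 0.0763). Without pLKO replicate 2 it was -0.41 (limma adjusted p = 0.413).

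IRF8, an interferon regulatory factor that works with SPI1 in monocyte development, lies on chromosome 16 (85932722 to 85956212, forward strand). It gave 21434, 15085 and 14008 with pLKO and 13896 and 16293 with shRNF5 in MOLM-13 (log2 fold change -0.14, SE 0.20, limma adjusted p = 0.755). In U937 it gave 2135 and 2720 with pLKO and 1883 and 1522 with shRNF5 (log2 fold change -0.51, SE 0.25, limma adjusted p = 0.219). The U937 groups did not overlap and those of MOLM-13 did. GFI1, a zinc finger repressor of monocyte genes, lies on chromosome 1 (92938600 to 92952482, reverse strand). Its values were 2948, 3562 and 3835 with pLKO and 3419 and 3249 with shRNF5 in MOLM-13, 3167 and 3673 with pLKO and 2989 and 2864 with shRNF5 in U937, and 3388, 3655 and 3707 with pLKO and 3794, 3654 and 3949 with shRNF5 in HL-60. The log2 fold changes of GFI1 were -0.04, -0.22 and 0.08, with limma adjusted p of 0.910, 0.571 and 0.615. The 95% intervals were -0.39 to 0.31, -0.74 to 0.30 and -0.16 to 0.33, and only the U937 interval reaches past the fold threshold of 0.4.

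Members also differed between lines in their level. Because each line was normalized on its own, the levels are given as the rank of the gene among all genes above 0 in the same library, where 100% is the highest, without correction for transcript length and without a test. IRF8 ranked at 98.3% to 99.1% in MOLM-13 and 78.2% to 89.9% in U937, and was listed at 0 in HL-60. CEBPE had the reverse order, at 71.0% to 90.8% in HL-60, 36.1% to 59.2% in U937 and 0 in MOLM-13. MOLM-13 and U937 are monocytic lines and HL-60 is promyelocytic, and the part of lineage in these ranks was not tested. CEBPB was highest in U937 (65.4% to 88.4%), while MOLM-13 (32.2% to 48.0%) and HL-60 (39.7% to 52.4%) overlapped. CEBPA was at 56.1% to 71.8% in HL-60, 43.6% to 61.1% in MOLM-13 and 33.6% to 49.1% in U937, with each neighbouring pair overlapping. CEBPD overlapped between MOLM-13 (43.1% to 52.0%) and HL-60 (34.3% to 45.4%). SOX4 was at 75.8% to 92.7% in U937 and 75.0% to 87.4% in MOLM-13, which overlapped, and at 46.0% to 60.1% in HL-60. RUNX1 ranked at 93.5% to 97.1% in MOLM-13, 85.8% to 91.0% in HL-60 and 75.2% to 92.4% in U937, where the constructs differed. MYB stayed at 96.4% or above and GFI1 at 84.9% or above in every library. SPI1 overlapped in all lines, at 74.0% to 87.5% in MOLM-13, 77.4% to 83.9% in HL-60 and 59.7% to 82.7% in U937.

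Whether the response to RNF5-KD differed between lines was tested on the difference itself, in one limma fit over all 15 libraries and the 11072 genes above 0 in every line, at an adjusted p under 0.1. The test could be made for 7 of the 10 members. Between U937 and HL-60 the response of 4 of 7 members differed (37.2% of all genes), between MOLM-13 and U937 that of 1 of 7 (15.4% of all genes) and between MOLM-13 and HL-60 that of 0 of 7 (8.82% of all genes, and 2 of 7 members at an unadjusted p under 0.05 in the same limma fit). The RUNX1 response was higher in U937 than in HL-60 by 1.43 on the log2 scale (SE 0.25, limma adjusted p = 0.00148). This difference passed in each of 20 alternatives, with a limma adjusted p from 0.000781 to 0.0109. RUNX1 also responded less in MOLM-13 than in U937 (difference -0.76, SE 0.26, limma adjusted p = 0.0814). The CEBPB response was lower in U937 than in HL-60 by 1.39 (difference -1.39, SE 0.42, limma adjusted p = 0.0230), and this call was lost without U937 pLKO replicate 2 (-0.87, limma adjusted p = 0.134). SOX4 fell more in U937 than in HL-60 (difference -0.59, SE 0.24, limma adjusted p = 0.0745), and SPI1 also had a more negative response in U937 (difference -0.76, SE 0.33, limma adjusted p = 0.0963). With 1 library left out, the RUNX1 call between MOLM-13 and U937 was lost in 7 of 15 fits, the SOX4 call in 6 of 15 and the SPI1 call in 10 of 15, and each difference kept its sign. Without the mean-variance trend, RUNX1 in MOLM-13 minus U937 and SPI1 in U937 minus HL-60 were not called (limma adjusted p of 0.116 and 0.130).

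MOLM-13 and HL-60 were set apart for CEBPB (difference -1.08, SE 0.40, limma adjusted p = 0.129) and RUNX1 (difference 0.66, SE 0.24, limma adjusted p = 0.120) without passing. Fitted on the libraries of these 2 lines alone, an alternative added after the data were seen, both passed (limma adjusted p of 0.0681 for CEBPB and 0.0968 for RUNX1). The same kind of fit ended 2 of the calls between lines, those of SOX4 in U937 minus HL-60 (limma adjusted p = 0.111) and RUNX1 in MOLM-13 minus U937 (0.152). In such fits the members absent from one line could be compared. The difference for CEBPD was -0.39 in MOLM-13 against HL-60 (95% interval -1.09 to 0.31), that for CEBPE was 0.70 in U937 against HL-60 (-0.43 to 1.83) and that for IRF8 was 0.37 in MOLM-13 against U937 (-0.32 to 1.06). None of these 3 passed (limma adjusted p of 0.467, 0.345 and 0.508). MYB missed the threshold narrowly between MOLM-13 and U937 (difference 0.56, SE 0.21, limma adjusted p = 0.102). The differences of CEBPA and GFI1 stayed between -0.31 and 0.18 in the 3 comparisons.

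**Figure D4:**
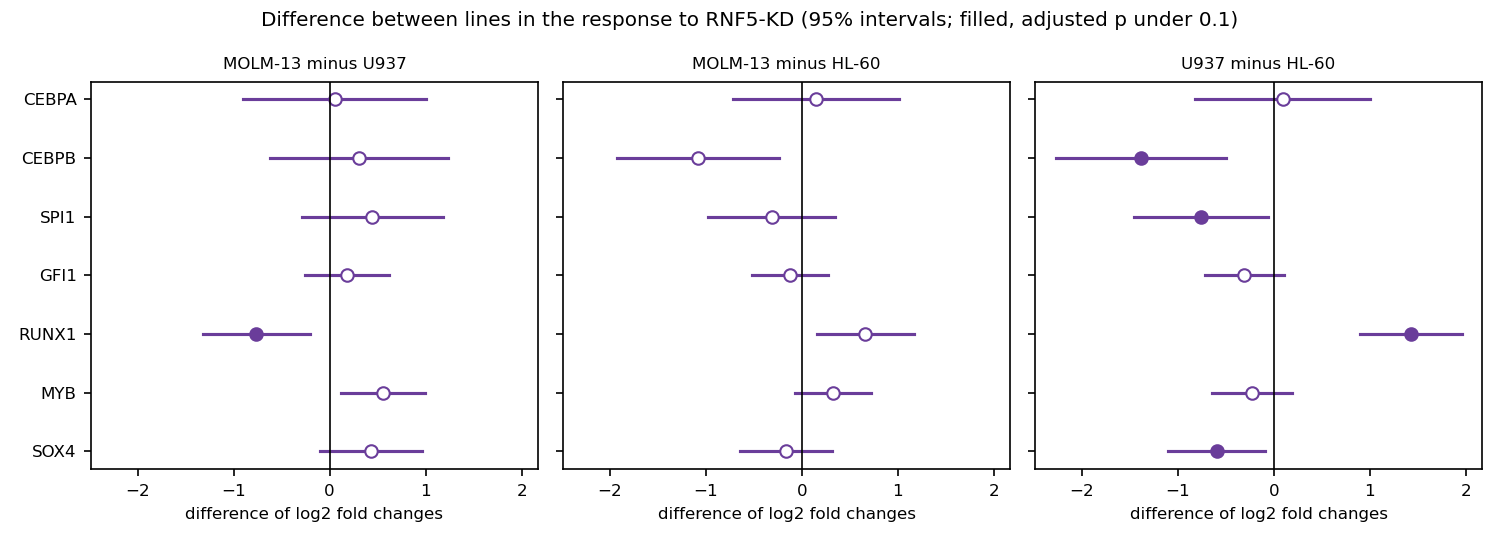
Difference of the log2 fold change between 2 lines (x axis) with its 95% interval, for the 7 members above 0 in every line, in 3 panels for the pairs of lines. Filled points passed at an adjusted p under 0.1: RUNX1 for MOLM-13 minus U937, and CEBPB, SPI1, RUNX1 and SOX4 for U937 minus HL-60.

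Several members have a gene on the opposite strand, and the strand setting of the authors' counting is not given in the sources used here. MYB-AS1 and both antisense transcripts of CEBPA were at 0 in every library, as were 8 of the 9 genes that lie within RUNX1 (the other was not matched by identifier in the files). CEBPB-AS1 and the gene opposite SOX4 were not matched either, so reads from them cannot be told apart from those of CEBPB and SOX4.

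The genes with the most similar pattern were sought for the called members over the 15 libraries, after the mean of each line was subtracted, among 11054 genes above 0 in every library. SOX4 was nearest to CAMKMT (Pearson r 0.96), a calmodulin lysine methyltransferase, and CDK7 (0.95), the kinase of the CDK-activating complex. RUNX1 was nearest to RPS6KB1 (0.97), the p70 S6 kinase, and the clone-named transcript CTD-2196E14.9 (0.97). CEBPB was nearest to SCPEP1 (0.95), a serine carboxypeptidase, and HPD (0.95), an enzyme of tyrosine breakdown. The libraries share their line and construct, and these values are a description.

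Relatives of the members were described from a fixed list of 30 genes of the same transcription factor families and their cofactors. In MOLM-13, 0 of 24 tested were called by limma (5 had an unadjusted p under 0.05). In U937 3 were higher and 2 lower of 24, and in HL-60 4 were higher and none lower of 23. Of all genes, 6.92% were called higher and 8.74% lower in U937, and 13.6% and 12.3% in HL-60. In MOLM-13 these shares were 1.03% and 1.01%, and the list was not tested against them. In U937, CBFB, the partner that stabilises RUNX1 on DNA, rose from 1703 ± 307 (SD, n = 2) to 3624 ± 510 (SD, n = 2), a log2 fold change of 1.09 (SE 0.25, limma adjusted p = 0.0344). ETS1 rose there too (1.3, limma adjusted p = 0.0212). RUNX2, the relative best known from bone, fell by 1.11 on the log2 scale (limma adjusted p = 0.0900), and IRF3, a mediator of interferon induction, fell by 0.98 on it (0.0434). In HL-60 the interferon regulatory factors IRF7 and IRF5 rose by 1.38 and 1.0 (limma adjusted p of 0.0104 and 0.00751). Without pLKO replicate 2 the RUNX2 value was -0.46 and without pLKO replicate 3 it was -1.76. The list's median log2 fold change was -0.01, -0.06 and 0.15 in MOLM-13, U937 and HL-60.

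The calls in U937 in this list and the 6 that follow rested on few libraries. The naming rule gives 21 of their genes in U937, and all 21 lost the call without pLKO replicate 2 (limma adjusted p from 0.256 to 0.497) and without shRNF5 replicate 1 (0.519 to 0.701). Without shRNF5 replicate 3, 20 of the 21 lost it, AZU1 being the exception, and without pLKO replicate 3, 3 did, with CD86 and MEIS1 among them.

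Other regulators of blood development formed a list of 26 genes. In MOLM-13, 0 of 20 were called by limma (8 had an unadjusted p under 0.05). In U937 7 were higher and 1 lower of 22, and in HL-60 2 were higher and 7 lower of 19. The shares of all genes were 6.92% higher and 8.74% lower in U937, and 13.6% and 12.3% in HL-60. They were 1.03% and 1.01% in MOLM-13, and this list was not tested against them either. In U937, TRIB1, a pseudokinase that promotes C/EBPα degradation, rose by 2.05 on the log2 scale (limma adjusted p = 0.0331). Its values were low, with a mean of 36.5 with pLKO and 151 with shRNF5. STAT5A, a cytokine signal transducer, fell there by 1.07 (limma adjusted p = 0.0526), with a log2 fold change of -0.70 without pLKO replicate 2. In HL-60, ID2, an inhibitor of E proteins, rose by 0.91 (limma adjusted p = 0.0101) and HHEX by 0.55 (0.0320), whose call was lost without pLKO replicate 3 or shRNF5 replicate 3 (0.104 and 0.113). EGR1, an immediate early factor of the monocyte path, fell by 2.0 (limma adjusted p = 0.00423), from a mean of 71 to 18. BATF3, a dendritic cell factor at low values (mean 27.3 with pLKO and 6.3 with shRNF5), fell by 1.87 (limma adjusted p = 0.0117). The medians were 0.09, 0.27 and 0.16.

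Genes of the myeloid programme, chosen by cell type or function and not as targets of the members, were described in 5 further lists. Their counts stand beside 6.92% of all genes called higher and 8.74% called lower in U937. In HL-60 these shares were 13.6% and 12.3%, and in MOLM-13 1.03% and 1.01%. The lists were not tested against these shares. Of the primary granule proteins, made in promyelocytes, 0 of 9 were called by limma in MOLM-13 (2 had an unadjusted p under 0.05), 2 were higher and 5 lower of 9 in U937, and 6 were higher and 1 lower of 10 in HL-60. The neutrophil serine protease homologue AZU1 fell in U937 (log2 fold change -2.44, SE 0.30, limma adjusted p = 0.00829), as did the protease CTSG (-1.18, 0.0562). The ribonucleases RNASE2 and RNASE3 of eosinophil granules rose there (1.70 and 1.36, limma adjusted p of 0.0929 and 0.0769). Without pLKO replicate 2 their values were 0.63 and 0.60, without pLKO replicate 3 they were 2.76 and 2.12, and that of RNASE2 was 1.12 without shRNF5 replicate 3. In HL-60, CTSG rose 3.98-fold on the tested scale, from 913 ± 262 (SD, n = 3) with pLKO to 3758 ± 1723 (SD, n = 3) with shRNF5, at a log2 fold change of 1.99 (limma adjusted p = 0.00238). Neutrophil elastase, ELANE, rose there by 1.73 (limma adjusted p = 0.00125), and PRG2, an eosinophil granule protein, fell by 1.58 (0.0109). The medians were -0.04, -0.72 and 0.82.

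Of the late granulocyte genes, 0 were higher and 1 lower of 7 in MOLM-13, 4 were higher and none lower of 8 in U937, and 5 were higher and 1 lower of 8 in HL-60. Secondary granule genes LTF, LCN2 and CAMP, known targets of CEBPE, were at 0 in every library. S100A9, a subunit of calprotectin, fell in MOLM-13 (log2 fold change -1.0, limma adjusted p = 0.0872) and rose in U937 (3.4, 0.00901). The MOLM-13 call was lost without pLKO replicate 2 (limma adjusted p = 0.206), pLKO replicate 3 (0.134), shRNF5 replicate 1 (0.643, log2 fold change -0.65) or shRNF5 replicate 2 (0.209). Its partner S100A8 rose by 3.09 in U937 (limma adjusted p = 0.0150) and by 3.35 in HL-60 (0.00212). These rises began at low values. The pLKO mean was 51 for S100A9 in U937, and 39.5 in U937 and 47.7 in HL-60 for S100A8. With shRNF5, S100A8 in HL-60 ran from 257 to 992. CHI3L1, a chitinase-like protein of specific granules, rose in HL-60, from 198 ± 43 (SD, n = 3) with pLKO to 1572 ± 136 (SD, n = 3) with shRNF5, by 3.0 on the log2 scale (limma adjusted p = 3.34e-05). The medians were -0.21, 1.09 and 1.25.

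Of the progenitor genes, 0 of 9 were called by limma in MOLM-13 (and 0 had an unadjusted p under 0.05), none was higher and 2 were lower of 9 in U937, and 2 were higher and 2 lower of 7 in HL-60. In U937 the homeobox genes HOXA9 and MEIS1 fell (log2 fold changes -1.48 and -0.96, limma adjusted p of 0.0179 and 0.0738). The MEIS1 call was lost with any one library left out, with a value of -0.54 without shRNF5 replicate 1, and that of HOXA9 was lost in 3 of 4 such fits. In HL-60 the receptor tyrosine kinase KIT rose by 1.1 (limma adjusted p = 0.00338) and the polycomb gene BMI1 by 0.72 (0.00554). MYC (log2 fold change -1.28, limma adjusted p = 0.00134) and the survival gene BCL2 (-0.72, 0.0140) fell there. The medians were 0.11, -0.21 and 0.21.

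Of the monocyte and antigen presentation genes, 0 of 8 were called by limma in MOLM-13 (2 had an unadjusted p under 0.05), none was higher and 4 were lower of 8 in U937, and 1 was higher and none lower of 4 in HL-60. CIITA, the master regulator of MHC class II, had a mean of 99.5 with pLKO and 5.0 with shRNF5 in U937 (log2 fold change -4.1, SE 0.68, limma adjusted p = 0.0179). MS4A6A fell there too (log2 fold change -2.2, limma adjusted p = 0.0329). In HL-60, CST3, a cysteine protease inhibitor abundant in monocytes and dendritic cells, rose by 1.32 (limma adjusted p = 0.00473). The medians were -0.86, -1.13 and 0.33, and in MOLM-13 the negative median came without a call.

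Of the myeloid receptors and surface proteins, 0 of 16 were called by limma in MOLM-13 (4 had an unadjusted p under 0.05), 3 were higher and 2 lower of 16 in U937, and 5 were higher and 3 lower of 14 in HL-60. The G-CSF receptor gene CSF3R (log2 fold change -0.97, limma adjusted p = 0.0614) and the integrin gene ITGAX (-1.44, 0.0914) fell in U937. FPR1, the formyl peptide receptor, had values of 0 and 1 with pLKO and 31 and 36 with shRNF5 there (limma adjusted p = 0.0266), and the costimulatory gene CD86 rose by 2.04 (0.0788). ITGAX was at -0.69 without pLKO replicate 2, -2.18 without pLKO replicate 3 and -0.90 without shRNF5 replicate 1. The CD86 call was lost with any one library left out, with a value of 1.28 without shRNF5 replicate 3. In HL-60 the signalling adaptors TYROBP and FCER1G rose by 1.38 and 1.16 (limma adjusted p of 0.00445 and 0.00654). The Fc receptor FCGR1A (log2 fold change -0.69, limma adjusted p = 0.0490) and the shared cytokine receptor chain CSF2RB (-0.65, 0.0154) fell there. The FCGR1A call was lost without pLKO replicate 1 or 3 (limma adjusted p of 0.139 and 0.101) and without shRNF5 replicate 2 or 3 (0.116 and 0.104). The medians were -0.03, 0.11 and 0.01.

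**Figure D5:**
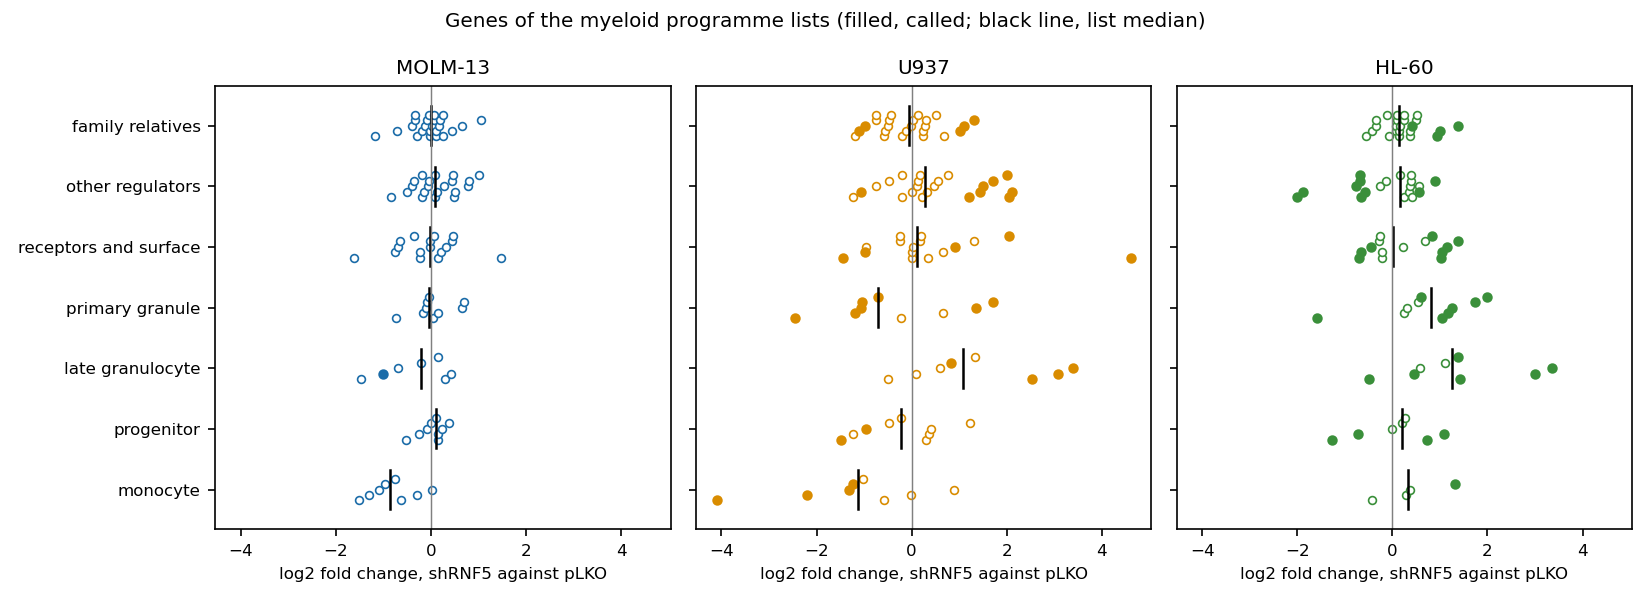
log2 fold change of shRNF5 against pLKO (x axis) of every tested gene of 7 lists of the myeloid programme (rows), in 3 panels for the lines. Filled points are called and the black line is the list median; late granulocyte genes have medians of 1.09 in U937 and 1.25 in HL-60, and monocyte genes of -0.86 in MOLM-13 and -1.13 in U937.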

How the data were processed

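Samples were assigned to line, construct and replicate from their labels. The authors mapped reads to hg19 (STAR), counted reads per gene (featureCounts) and scaled them in each line (edgeR in SARTools). What they deposited is handled here as a score: counts divided by a library factor and rounded, with 0 for genes that failed their filter. These are not raw counts, so no count model was run. The test was limma 3.58.1 (R 4.3.3) with moderated variances that follow the mean level (empirical Bayes, trend), adjusted over all genes of a comparison. Depth was inferred from the steps between rounded values (9720000 to 63800000 reads per library), gives no counting interval and limits low values most.

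The members and lists were chosen with earlier results of these data known. Named genes are RNF5, the members, per list, line and direction the 2 called genes with the largest change and no overlap of groups, the 2 genes most like each called member, and genes overlapping members. A gene that the rule names is not reported here. LTF, LCN2, CAMP and the marker genes above 0 were named after their values were seen. In simulated data with 200 genes changed by 1.5 (log2), 99.5%, 98% and 100% of them were recovered with the libraries of MOLM-13 (13026 genes), U937 (13165) and HL-60 (12570), and 5.69%, 9.68% and 10.3% of the calls were false. The simulation gave every gene the same fixed spread between libraries and a change larger than that of any member. These rates check the code and do not measure power or false calls for the members. Coordinates are from GENCODE on GRCh37. Alternatives were pseudocounts of 0.5 and 10, a minimum mean value of 50, an adjusted p under 0.05, no fold threshold, a joint fit of all libraries, median-of-ratios rescaling, no trend, library weights, replicate blocks and each library left out.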

Additional observations from a re-analysis of the deposited data

Results flagged for a closer look

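Differences between lines passed their own test for 5 values, all given in the report. For RUNX1 the difference was 1.43 (U937 minus HL-60) and -0.76 (MOLM-13 minus U937). For U937 minus HL-60 it was -1.39 for CEBPB, -0.76 for SPI1 and -0.59 for SOX4.

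Leaving out 1 library ended some of these calls. For RUNX1 in MOLM-13 minus U937 they were MOLM-13 pLKO replicates 2 and 3 (limma adjusted p of 0.158 and 0.134), shRNF5 replicates 1 and 2 (0.196 and 0.214), U937 pLKO replicate 2 (0.233), shRNF5 replicate 1 (0.252) and HL-60 pLKO replicate 3 (0.106). For SOX4 they were, with limma adjusted p in brackets, U937 pLKO replicate 2 (0.181) and shRNF5 replicate 1 (0.298), and HL-60 pLKO replicates 1 and 3 (0.151 and 0.104) and shRNF5 replicates 2 and 3 (0.154 and 0.118). For SPI1, whose difference was -0.37 without U937 pLKO replicate 2 (limma adjusted p = 0.420) and -0.56 without U937 shRNF5 replicate 3 (0.282), the other 8 fits in which the call was lost gave an adjusted p from 0.104 to 0.189. They left out MOLM-13 pLKO replicate 3, either MOLM-13 shRNF5 library, HL-60 pLKO replicate 1 or 3, or any HL-60 shRNF5 library. The CEBPB call was lost without U937 pLKO replicate 2 alone (-0.87, limma adjusted p = 0.134).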

How the results depend on the processing

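The number of members called in MOLM-13 (1) was 0 at an adjusted p under 0.05, without the mean-variance trend and with the replicate block, and 0 to 1 with a library left out. In U937 (2) it was 5 in one fit over all libraries, 0 without the trend and 0 to 4 with a library left out. In HL-60 (2) it was 1 at an adjusted p under 0.05, 1 in one fit over all libraries, 3 with no fold threshold or with median-of-ratios rescaling (MYB added), 3 with library weights (CEBPD added) and 0 to 3 with a library left out. The response of 1 member differed between MOLM-13 and U937, against 2 with a mean value of at least 50, 0 without the trend, 0 in the fit of both lines only and 0 to 3 with a library left out. Between MOLM-13 and HL-60 the count was 0, against 2 in the fit of both lines only and 0 to 2 with a library left out, and between U937 and HL-60 it was 4, against 1 to 4.

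Some values that were not called with all libraries changed sign. Of these, CEBPE in HL-60 was called without shRNF5 replicate 2 (0.59), and the others in the fits named here were not called. GFI1 in MOLM-13 became 0.0406 with the replicate block and ranged from -0.15 to 0.0406 with a library left out. IRF8 in MOLM-13 ranged from -0.26 to 0.0498 and CEBPD from -0.26 to 0.31. CEBPA ranged from -0.16 to 0.75 in U937 and from -0.0546 to 0.39 in HL-60. In HL-60, SPI1 became 0.0295 with library weights and ranged from -0.13 to 0.0776, and CEBPE ranged from -0.15 to 0.59. Differences of the response ranged from -0.21 to 0.82 for CEBPB (MOLM-13 minus U937) and, for CEBPA, from -0.40 to 0.51 (MOLM-13 minus U937), -0.11 to 0.40 (MOLM-13 minus HL-60) and -0.36 to 0.55 (U937 minus HL-60). The cause was not tested.

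By the label numbers, deviations of same-numbered libraries correlated at -0.17 and -0.53 in MOLM-13 and at 0.50, 0.16 and -0.11 in HL-60. The HL-60 values did not pair its libraries, and U937 shared 1 number, so it had no block. The deposited files number the MOLM-13 shRNF5 libraries 2 and 3, and in that pairing the deviations correlated at 0.53 and 0.28. With 2 shRNF5 libraries, their deviations mirror each other, so 0.53 is the -0.53 of the label numbers with its sign turned. The MOLM-13 correlations therefore cannot choose between the numberings. Which numbering is right, and whether either marks a shared origin, is not given in the sources used here. With the crossed pairing 2 members were called in MOLM-13, SOX4 (limma adjusted p = 0.000561) and CEBPB (0.0221), RUNX1 had an adjusted p of 0.0215 with a value under the fold threshold (0.32), and IRF8 became 0.0498. Both blocks leave the pLKO library without a partner out of the estimate. Over all genes, MOLM-13 calls went from 266 to 738 with the block of the labels and 2495 with the crossed one, to 2224 with library weights, 55 without the trend and 39 at an adjusted p under 0.05. U937 calls went from 2062 to 3994 in one fit over all libraries, 475 without the trend and 824 at an adjusted p under 0.05. One fit over all libraries also ended the calls of S100A9 in MOLM-13, ITGAX in U937 and FCGR1A and KIT in HL-60 (limma adjusted p = 0.139 for KIT). Among the members, the replicate block of the labels ended the SOX4 call in MOLM-13 (log2 fold change -0.61, limma adjusted p = 0.149) and changed no other call.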
